A study of Mus musculus with 14 samples.

Results

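The insulin-like growth factor (IGF) axis was described in mouse corneal stroma and in stromal cells grown in culture through 9 genes: the ligand Igf1, its receptor Igf1r, the binding proteins Igfbp2 to Igfbp7 and the secreted protease Htra1. They were taken by gene symbol from the array annotation. Of the 9, 8 had a probe set that carries their symbol alone (12 probe sets), and these 8 were among the 7437 genes that passed a filter on low signals. Igfbp5 shares its probe set with Tmem119 and is treated apart.

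RNA of CD-1 mice, with no genetic modification named, was hybridised to 14 Affymetrix MG_U74Av2 arrays, each carrying a single sample. The 3 myofibroblast cultures were corneal stromal cells of mice aged 7 to 8 weeks kept in DMEM with 10% fetal bovine serum and 10 ng/ml of the cytokine TGF-beta1. The 3 fibroblast cultures, from mice of the same age, had the same 10% serum without TGF-beta1, and the 3 keratocyte cultures, also from such mice, had 1% platelet-poor horse serum. The 3 adult stroma arrays held RNA of stroma dissected at 7 to 8 weeks, and the 2 P10 arrays stroma dissected at postnatal day 10. The labels give neither the number of animals behind an array nor whether cultures were started separately, so p-values measure the spread between these samples, which may be technical.

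IGFs act on cells through the IGF1 receptor, a tyrosine kinase that passes the signal on to the PI3 kinase and MAP kinase pathways and so promotes growth and survival. Most IGF outside cells is held by binding proteins, which keep it from the receptor or carry it there, and proteases cut these proteins and set IGF free. Keratocytes, the resident cells of the corneal stroma, are known to respond to IGFs in culture.

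Promoter sequences are shown for the 4 members with the largest differences or bounds in keratocyte culture against adult stroma, so that the letters just upstream of their starts can be set beside the values. Each covers the 250 bases before the RefSeq start in build GRCm38.p6, 5′ to 3′ on the strand of the gene, in lower case with motif matches in capitals. Igfbp2 (chr1:72824230-72824479, plus strand, the upstream window of the 2 listed) is followed by Igfbp3 (chr11:7213924-7214173, minus strand), Igfbp4 (chr11:99040994-99041243, plus strand) and Htra1 (chr7:130935953-130936202, plus strand).
Igfbp2: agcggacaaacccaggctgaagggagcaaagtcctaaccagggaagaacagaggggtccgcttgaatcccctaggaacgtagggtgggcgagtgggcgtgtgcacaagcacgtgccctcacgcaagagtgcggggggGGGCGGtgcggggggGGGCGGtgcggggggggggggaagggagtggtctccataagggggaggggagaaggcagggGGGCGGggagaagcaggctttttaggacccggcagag
Igfbp3: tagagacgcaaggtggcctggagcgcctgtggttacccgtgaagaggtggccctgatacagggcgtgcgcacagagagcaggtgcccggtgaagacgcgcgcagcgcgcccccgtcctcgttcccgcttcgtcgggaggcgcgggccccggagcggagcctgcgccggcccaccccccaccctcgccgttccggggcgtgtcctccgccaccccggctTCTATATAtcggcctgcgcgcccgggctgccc
Igfbp4: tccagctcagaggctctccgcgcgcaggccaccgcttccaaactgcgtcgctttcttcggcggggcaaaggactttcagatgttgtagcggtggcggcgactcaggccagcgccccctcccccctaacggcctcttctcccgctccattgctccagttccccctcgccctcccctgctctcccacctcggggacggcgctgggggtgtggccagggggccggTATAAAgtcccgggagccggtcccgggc
Htra1: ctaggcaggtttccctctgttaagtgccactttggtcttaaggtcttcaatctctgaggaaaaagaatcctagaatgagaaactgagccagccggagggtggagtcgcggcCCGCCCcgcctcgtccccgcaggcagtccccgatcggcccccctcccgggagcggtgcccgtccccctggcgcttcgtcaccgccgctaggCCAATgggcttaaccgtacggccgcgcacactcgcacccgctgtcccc
4 motifs were searched on both strands: the TATA box (TATANA), the GC box (GGGCGG), the CCAAT box (CCAAT) and the AP-1 site (TGANTCA). Igfbp3 had 2 TATA matches that overlap each other, 32 to 25 bases before the start, and Igfbp4 had 1, at 28 to 23 bases. Igfbp2 had 3 GC boxes in this window and Htra1 had 1 GC box and 1 CCAAT box, while neither had a TATA match. Over all 32851 RefSeq promoter windows of this length, 22.6% held a TATA match, 32.7% a GC box, 33.9% a CCAAT box and 6.75% an AP-1 match. A match describes letters only. No match overlapped a match of another motif in the members' windows, and all 9 members were found in the table.

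Signals are the deposited linear intensities, none of them below 1, which is called the floor. The array has 19 control probe sets for bacterial and yeast transcripts, which mouse RNA does not contain. Their 95th percentile over all arrays was 137.7, and a group mean below that is called within background. Where a group is within background, a bound of the form "at least N-fold" replaces the difference. Differences are of log2(signal + 16), group named first minus group named second, from 1 limma fit over 10370 probe sets, and a difference is called where its adjusted p is below 0.05. Levels of different probe sets are not comparable, so each is followed across groups only.

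The stroma arrays also held signal of neighbouring tissues. Summed signals of 13 measured corneal epithelium markers lay between 26088 and 29412 in adult stroma and between 24643 and 25052 in P10 stroma, against 477 to 721 over the 9 cultures. Of the 13, all 13 were lower in each culture than in adult stroma. All 9 measured retina markers were lower in each culture too. Of 6 measured lens markers, 4 were lower in myofibroblast, 3 in fibroblast and 2 in keratocyte cultures. Marker counts here are of called differences against adult stroma. Of all probe sets, 33%, 30.8% and 31.1% were called either way in myofibroblast, fibroblast and keratocyte cultures. Of 9 measured keratocyte markers, 2 were higher and 4 lower in myofibroblast, 2 higher and 3 lower in fibroblast, and 4 higher and 1 lower in keratocyte cultures than in adult stroma. Their summed signals were 7372 to 9733 in myofibroblast, 8358 to 17285 in fibroblast and 8932 to 19718 in keratocyte cultures, with 18114 to 19000 in adult and 21440 to 21767 in P10 stroma. The 3'/5' signal ratios of Gapdh and Actb, which read RNA quality, were higher in stroma than in culture with no overlap. The Gapdh ratio was 0.756 to 0.859 over the 9 cultures, against 0.908 to 2.12 in adult and 0.896 to 0.936 in P10 stroma, and the Actb ratio was 1.06 to 1.20 in cultures, against 1.44 to 4.05 in stroma. The part of tissue and RNA quality in the culture and stroma differences below was not tested, apart from the Gapdh ratio as a covariate. Array signals come from bulk RNA, in which fewer cells of a type and less RNA per cell cannot be told apart.

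Igf1, the ligand, was measured by a pair of probe sets that gave different patterns. On the brighter probe set signals were 266, 265 and 279 in myofibroblast, 256, 295 and 309 in fibroblast and 274, 310.2 and 247 in keratocyte cultures, with 205, 211 and 300.5 in adult and 246 and 286 in P10 stroma. All neighbouring groups overlapped in the order of levels, and no comparison was called (adjusted p from 0.26 to 0.987 over the 7 comparisons made below). On the dimmer probe set signals were 217, 234 and 207 in myofibroblast, 121, 117 and 87.8 in fibroblast and 157, 129 and 175 in keratocyte cultures, against 29.3, 33.5 and 73.2 in adult and 49.9 and 95.8 in P10 stroma. The dimmer probe set was called higher in all 3 kinds of culture than in adult stroma, where its mean of 45.3 lay within background. The bound was at least 1.75-fold for myofibroblast cultures (adjusted p = 2.79e-05) and at least 1.22-fold for keratocyte cultures (adjusted p = 0.000358). Fibroblast cultures, at 109 ± 18.2 (SD, n = 3), were within background too (adjusted p = 0.00489). Over the 14 arrays the 2 probe sets correlated at r = 0.515. With the median of the 2 as the value of Igf1, the gene was called higher in myofibroblast (adjusted p = 0.00051), fibroblast (0.0158) and keratocyte cultures (0.00312) than in adult stroma, so the call for Igf1 depends on the probe set.

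**Figure D1:**
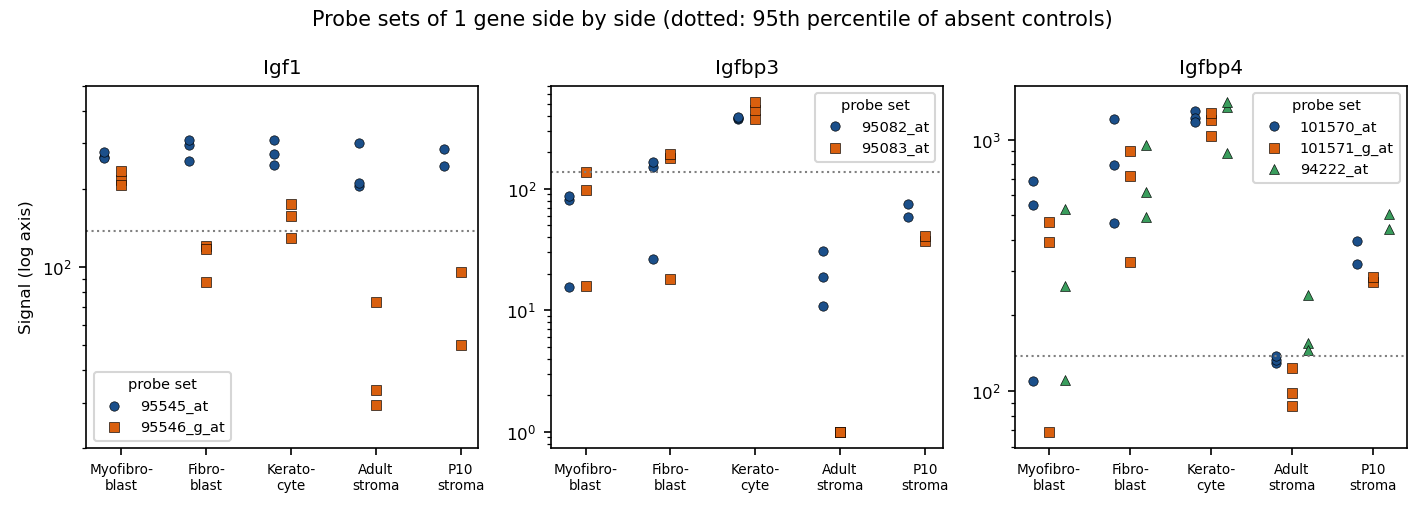
Signals (log axis) of every array for each probe set of Igf1, Igfbp3 and Igfbp4, with the 5 groups from myofibroblast culture at left to P10 stroma at right and the background limit of 137.7 dotted. The dimmer Igf1 probe set is lower in adult stroma than in the cultures while the brighter one overlaps across groups, those of Igfbp3 and Igfbp4 have the same high group, keratocyte cultures, and 1 Igfbp3 probe set has no adult array above the floor.

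Igf1r, the IGF1 receptor, had its highest mean in P10 stroma. Its signals were 438, 308 and 419 in myofibroblast, 647, 479 and 732 in fibroblast and 816, 374 and 628 in keratocyte cultures, with 394, 407 and 323 in adult and 742 and 777 in P10 stroma. P10 arrays lay above all fibroblast, myofibroblast and adult arrays, and keratocyte replicate 2 lay among the adult arrays. The adult minus P10 difference was -0.996 ± 0.28 (SE), with an adjusted p of 0.0666 that went below the threshold under 5 of 27 alternatives, quantile normalization among them (0.021). The keratocyte minus adult difference was 0.61 ± 0.25 (adjusted p = 0.0799, and 0.00722 without keratocyte replicate 2), and the fibroblast minus adult difference 0.69 ± 0.25 (adjusted p = 0.0511, called under 8 of 27 alternatives). Myofibroblast minus fibroblast gave -0.65 ± 0.25 with an adjusted p of 0.446, although the 3 same-numbered differences were -0.55, -0.61 and -0.78. Myofibroblast cultures were lower than P10 stroma by a called difference of -0.95 ± 0.28 (adjusted p = 0.0254).

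**Figure D2:**
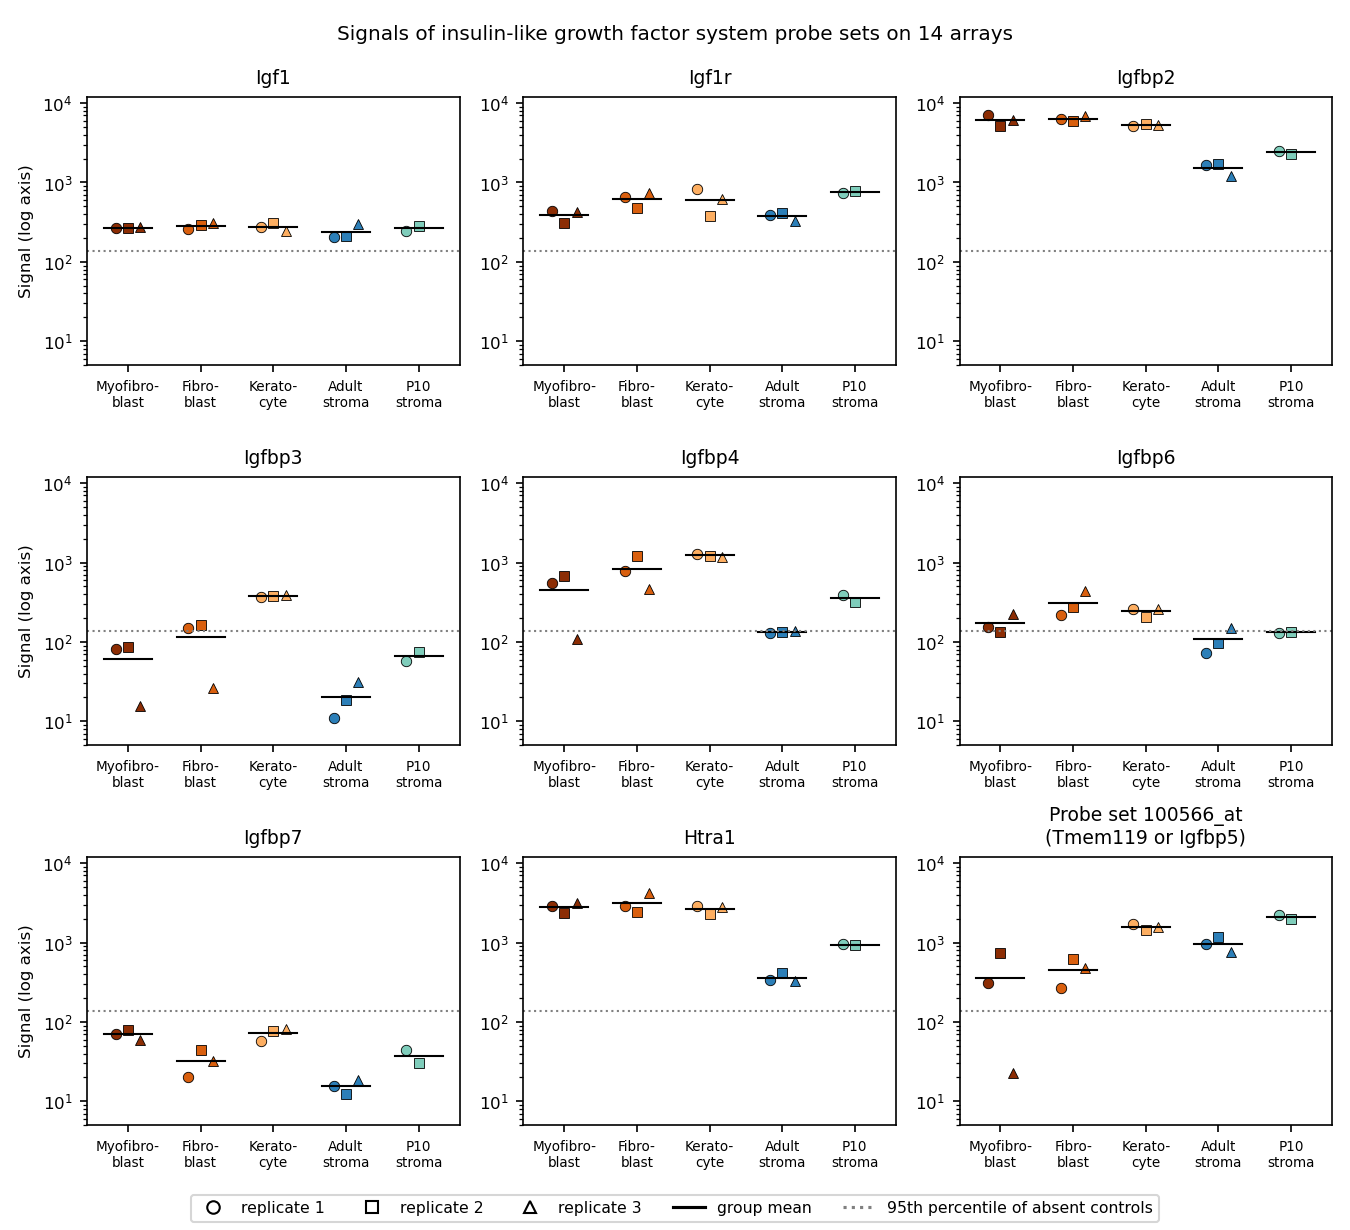
Signal of each array (log axis) for 8 members and for the probe set annotated to both Tmem119 and Igfbp5, with group means as bars and the background limit of 137.7 dotted. Igfbp2 and Htra1 are high in all 9 cultures, Igfbp3 and Igfbp4 are highest on average in keratocyte cultures with replicate 3 of each serum culture low, and Igfbp7 lies below the limit throughout.

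Igfbp2, a binding protein for both IGF1 and IGF2, was higher in every culture than in stroma. Signals were 6983, 5136 and 6158 in myofibroblast, 6295, 5885 and 6796 in fibroblast and 5126, 5515 and 5298 in keratocyte cultures, against 1643, 1694 and 1206 in adult and 2500.4 and 2279 in P10 stroma. Culture arrays and stroma arrays did not overlap, nor did adult and P10 arrays. Against adult stroma the difference was 2.002 ± 0.14 in myofibroblast (adjusted p = 8.91e-08), 2.06 ± 0.14 in fibroblast (adjusted p = 6.81e-08) and 1.82 ± 0.14 in keratocyte cultures (adjusted p = 2.73e-07). All 27 alternatives kept each of these calls. Against P10 stroma the differences were 1.33, 1.40 and 1.15, each ± 0.16 and called (adjusted p of 2.91e-05, 2.15e-05 and 0.000152). Between cultures no difference was called: fibroblast minus keratocyte was 0.25 (95% interval -0.06 to 0.56) and myofibroblast minus fibroblast -0.06 (-0.37 to 0.24). The adult minus P10 difference of -0.67 ± 0.16 was called (adjusted p = 0.033), but 12 of 27 alternatives lost the call, among them centring every array on its median (-0.49, adjusted p = 0.194). Without P10 replicate 1 the adjusted p was 0.291, without P10 replicate 2 it was 0.163, and it was 0.0538, 0.0599 and 0.0549 without adult replicate 1, adult replicate 3 or keratocyte replicate 3.

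Igfbp3, the main IGF carrier of blood, was above background in keratocyte cultures only. On 1 of 2 probe sets, the main one here, signals were 81.3, 86.8 and 15.5 in myofibroblast, 150.4, 165 and 26.3 in fibroblast and 372, 379.98 and 387 in keratocyte cultures, against 10.9, 18.7 and 30.9 in adult and 58.1 and 75.1 in P10 stroma. The keratocyte arrays lay above all others, 2 fibroblast arrays lay just over the limit of 137.7, and replicate 3 was low in both serum cultures. Keratocyte cultures were at least 3.04-fold higher than adult stroma (means 379.7 and 20.2, adjusted p = 0.000105), and the other probe set gave at least 3.53-fold (means 445 and 1, adjusted p = 3.44e-05). Myofibroblast cultures were at least 2.92-fold lower than keratocyte cultures (means 61.2 and 379.7, adjusted p = 0.00739), with at least 3.37-fold on the other probe set (adjusted p = 0.0259). Fibroblast minus keratocyte was not called (means 114 and 379.7, adjusted p = 0.106), although the arrays did not overlap, and was called without both number 3 arrays of the serum cultures (adjusted p = 0.0351). Fibroblast cultures and adult stroma, both within background, differed at an adjusted p of 0.0247. That call was lost with the Gapdh ratio as a covariate (adjusted p = 0.165). It was also lost without fibroblast replicate 1 or 2 (0.103 and 0.0944) and without adult replicate 1 or 2 (0.0932 and 0.0531). The other probe set, with every adult array at the floor, gave an adjusted p of 0.00347. The 2 probe sets correlated at r = 0.967 over the 14 arrays.

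Igfbp4, a binding protein that mostly holds IGF back from its receptor, also had its highest mean in keratocyte cultures. On the brightest of 3 probe sets signals were 549.8, 686 and 110.1 in myofibroblast, 792, 1211 and 464 in fibroblast and 1295, 1215 and 1176 in keratocyte cultures, against 129, 133 and 137 in adult and 395 and 321 in P10 stroma. All fibroblast and keratocyte arrays lay above all stroma arrays, and myofibroblast replicate 3 lay below the adult arrays. Fibroblast replicate 2 lay among the keratocyte arrays, and fibroblast minus keratocyte was not called (-0.67, adjusted p = 0.78). Nor was it on the other probe sets (adjusted p of 0.674 and 0.622). Against adult stroma, within background at 133 ± 4.02 (SD, n = 3), keratocyte cultures were at least 8.73-fold higher (mean 1228 ± 60.8, adjusted p = 0.000235) and fibroblast cultures at least 5.43-fold higher (mean 822 ± 374, adjusted p = 0.00173). These bounds are those of the brightest probe set. Another had every adult array above the background limit (mean 181) and gave smaller rises. Its difference was 2.64 in keratocyte (mean 1211, adjusted p = 0.0002) and 1.81 in fibroblast cultures (mean 686, adjusted p = 0.00377). On the brightest probe set myofibroblast cultures averaged 449 ± 301 and were not called against adult stroma (adjusted p = 0.0525, and 0.000144 without myofibroblast replicate 3). The other probe sets gave adjusted p of 0.111 and 0.408, also uncalled. Myofibroblast replicate 3 was as low on them, at 68.9 and 111. Myofibroblast cultures were lower than keratocyte cultures by a called difference of -1.75 ± 0.49 (adjusted p = 0.0478), which was -0.98 (adjusted p = 0.0961) without myofibroblast replicate 3, and 18 of 27 alternatives lost the call. The other probe sets gave -2.20 (adjusted p = 0.0185) and -2.17 (adjusted p = 0.00542). Adult minus P10 stroma was not called (adjusted p = 0.25), and was without myofibroblast replicate 3 (adjusted p = 0.0266).

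Igfbp6, which binds IGF2 in preference to IGF1, was higher in fibroblast and keratocyte cultures than in adult stroma. Signals were 154, 135 and 226 in myofibroblast, 220.4, 273 and 437 in fibroblast and 263, 205 and 259 in keratocyte cultures, against 73.5, 97.7 and 152 in adult and 130.3 and 135 in P10 stroma. Fibroblast and keratocyte arrays lay above all stroma arrays, and myofibroblast arrays overlapped them. Fibroblast cultures were at least 2.36-fold higher than adult stroma (means 310.2 and 108, adjusted p = 0.00119) and keratocyte cultures at least 1.91-fold (means 242 and 108, adjusted p = 0.00604), while myofibroblast cultures, with a mean of 172, were not called (adjusted p = 0.0948). The keratocyte call was lost with the Gapdh ratio, highest on adult replicate 1 at 2.12, as a covariate (adjusted p = 0.0953). Fibroblast cultures were also higher than P10 stroma, at least 1.97-fold (means 310.2 and 133, adjusted p = 0.0226). Igfbp7, a secreted protein of vessel walls that binds IGF weakly, was within background on every array. Its signals were 70.5, 80.2 and 59.5 in myofibroblast, 20.2, 44.6 and 32 in fibroblast and 58.4, 76.5 and 82.3 in keratocyte cultures, with 15.5, 12.5 and 18.8 in adult and 44.2 and 30.7 in P10 stroma. The fit called it higher in keratocyte (adjusted p = 0.000144) and myofibroblast cultures (adjusted p = 0.000161) than in adult stroma, and no fold can be given.

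Htra1, a secreted serine protease with an IGFBP-like domain that cuts binding proteins and matrix, rose in all 3 kinds of culture against both stroma groups. Signals were 2889, 2326 and 3126 in myofibroblast, 2868, 2414 and 4156 in fibroblast and 2883, 2306 and 2816 in keratocyte cultures, against 340.4, 416 and 329 in adult and 950.4 and 939.8 in P10 stroma. Culture, P10 and adult arrays formed 3 levels with no overlap. The difference from adult stroma was 2.88 ± 0.19 in myofibroblast (adjusted p = 3.93e-08), 3.03 ± 0.19 in fibroblast (adjusted p = 2.53e-08) and 2.83 ± 0.19 in keratocyte cultures (adjusted p = 5.49e-08). Against P10 stroma it was 1.53, 1.68 and 1.47, each ± 0.21 (adjusted p of 0.000124, 5.7e-05 and 0.000208). Adult stroma was lower than P10 stroma by -1.35 ± 0.21 (adjusted p = 0.00241). Each of the calls against adult stroma, and the adult minus P10 call, held under all 27 alternatives. No difference among the cultures was called: fibroblast minus keratocyte 0.21 (95% interval -0.20 to 0.62), myofibroblast minus fibroblast -0.15 (-0.56 to 0.26) and myofibroblast minus keratocyte 0.06 (-0.35 to 0.46).

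A single probe set is annotated to both Tmem119 and Igfbp5, a binding protein that attaches to matrix, and its signal is assigned to neither. It gave 309, 733 and 22.7 in myofibroblast, 271, 617 and 480.2 in fibroblast and 1711, 1427 and 1592 in keratocyte cultures, with 956, 1175 and 759 in adult and 2212 and 1968 in P10 stroma. All adult, P10 and keratocyte arrays lay above all arrays of the serum cultures. Myofibroblast minus keratocyte was called at -2.91 ± 0.72 (adjusted p = 0.0272) and myofibroblast minus adult at -2.19 ± 0.72 (adjusted p = 0.0314). Without myofibroblast replicate 3, at 22.7, these were -1.69 (adjusted p = 0.0162) and -0.97 (adjusted p = 0.0588, not called). The keratocyte call was lost with only the 2 groups (0.138) and without keratocyte replicate 1, 2 or 3 (0.101, 0.0506 and 0.0981). The adult call was lost with only the 2 groups (0.0791) and with the Gapdh ratio as a covariate (0.159). It was also lost without adult replicate 1, 2 or 3 (0.0763, 0.0813 and 0.0538). The other 5 comparisons were not called. Without myofibroblast replicate 3, fibroblast minus keratocyte (-1.82, adjusted p = 0.0152) and fibroblast minus adult (-1.10, adjusted p = 0.0175) were. In the mouse genome Igfbp5 is the next gene to Igfbp2 on chromosome 1, as Igfbp3 is to Igfbp1 on chromosome 11.

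The adult minus P10 comparison asks what changes as the stroma matures. Htra1 and Igfbp2 were lower in the adult, 2 of 8 members, against 3.26% of all probe sets called lower and 3.71% called either way. The median fitted member difference was -0.87, beside -0.12 over all probe sets. Of 9 other tested IGF genes, such as ligands, insulin and receptors, 2 were lower: Igf2, the fetal growth factor, with 230.4 ± 63.1 in the adult, against 1495 ± 276 at P10 (-2.64, adjusted p = 0.000775), and Ins2, an insulin gene, with 76.6 ± 2.98 in the adult, against 313 ± 102 at P10 (adjusted p = 0.00215). The adult mean of Ins2 was within background. The adult minus P10 comparison gave 0 of 14 binding protein proteases, 1 of 8 other genes with an IGFBP domain (Ccn2, lower), 1 of 20 signalling genes (Irs2, lower) and 0 of 8 growth hormone genes. With the replicate number as a block Ccn2 (adjusted p = 0.0601) and Irs2 (0.0594) were not called. Pigment cell markers moved with these results, 3 of 5 measured lower in the adult, with summed signals of 667 to 845 in adult and 1701 to 5101 in P10 stroma. Of 8 myofibroblast and smooth muscle markers, 3 were lower and 1 higher in the adult (median -1.08), with summed signals of 1623 to 2706 in adult and 2200.5 to 3126 in P10 stroma. The part of these cells was not tested.

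The cultures were set against the adult stroma from which such cells are taken, and these 3 comparisons share the 3 adult arrays. Keratocyte cultures had 6 of 8 members higher and none lower, against 21.8% of all probe sets called higher and 31.1% either way. These were Igfbp2, Igfbp3, Igfbp4, Igfbp6, Igfbp7 and Htra1. Fibroblast cultures had 5 of 8 higher, the same without Igfbp7 (18.4% called higher, 30.8% either way). Myofibroblast cultures had 3 of 8 higher, Igfbp2, Igfbp7 and Htra1 (17.5% called higher, 33% either way). Igfbp7, within background on every array, passed the filter only through keratocyte and myofibroblast cultures, so its calls there give no support. Igfbp3 was within background in both fibroblast cultures and adult stroma. Median fitted member differences were 1.13 in myofibroblast, 1.51 in fibroblast and 1.65 in keratocyte cultures, beside -0.01, 0.04 and 0.12 over all probe sets. The member medians include members within background. The myofibroblast count was 5 without replicate 3 of that culture. Other cell type markers moved with these counts, besides the epithelium, lens and retina lists given above. Macrophage markers were higher for 3 and lower for 3 of 12 in myofibroblast, higher for 7 and lower for 1 in fibroblast, and higher for 8 in keratocyte cultures. Their summed signals were 1343 to 2204 in myofibroblast, 1573 to 3093 in fibroblast and 3628 to 4669 in keratocyte cultures, against 1051 to 1425 in adult stroma. Endothelium markers were higher for 4 of 9 measured in myofibroblast, where 1 was lower, 4 in fibroblast and 5 in keratocyte cultures. Their sums were 2534 to 3472 in myofibroblast, 2006.5 to 3055 in fibroblast and 2222 to 2958 in keratocyte cultures, against 853 to 1139 in adult stroma. Of these 9, means were within background for 6 in myofibroblast, 6 in fibroblast and 4 in keratocyte cultures, and for 5 in adult stroma. Myofibroblast and smooth muscle markers were higher for 5, 5 and 6 of 8 and lower for 2, 0 and 2 in myofibroblast, fibroblast and keratocyte cultures. Their sums were 10357 to 11345.5 in myofibroblast, 5170 to 11403.5 in fibroblast and 11468 to 12711 in keratocyte cultures, against 1623 to 2706 in adult stroma. Keratocyte cultures thus had the highest sums of these markers. Pigment cell markers were called in keratocyte cultures only, 4 of 5 measured higher, with sums of 1947 to 2313 in keratocyte cultures, against 667 to 845 in adult stroma. The part of these cells in the members' signals was not tested.

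Set against P10 stroma, whose 2 arrays these comparisons share, keratocyte cultures had 4 of 8 members higher (8.84% of all probe sets called higher, 15.4% either way) and fibroblast cultures 3 of 8 (7.97% higher, 18% either way). Myofibroblast cultures had 2 of 8 higher and 1, Igf1r, lower (7.84% higher, 13.7% lower, 21.5% either way). Igfbp2 and Htra1 were higher in each. Keratocyte cultures had Igfbp3, at least 2.51-fold (means 379.7 and 66.6, adjusted p = 0.0127), and Igfbp4 (1.74 ± 0.54, adjusted p = 0.0435) besides.

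Other genes of the pathway were also counted against adult stroma, to be read against the 33%, 30.8% and 31.1% of all probe sets called either way in myofibroblast, fibroblast and keratocyte cultures. Of 14 binding protein proteases 9 rose in keratocyte, 9 in fibroblast and 4 in myofibroblast cultures, where 1, Plg, fell, a call lost with the replicate block (adjusted p = 0.0618) and without both number 3 arrays (0.213). Mmp3, a matrix metalloprotease that can cut binding proteins, averaged 2611 ± 256 in keratocyte and 1427 ± 608 in fibroblast cultures, against 103 ± 42.3 in adult stroma (adjusted p of 3.31e-06 and 3.18e-05). Of 8 other genes with an IGFBP domain 5 rose in keratocyte, 6 in fibroblast and 6 in myofibroblast cultures, where 2 fell. Ccn2, connective tissue growth factor, averaged 4304 ± 361 in myofibroblast, 2292 ± 1028 in fibroblast and 3730 ± 173 in keratocyte cultures, against 56.2 ± 46.5 in adult stroma, which is within background (adjusted p of 1.53e-08, 1.1e-07 and 2.48e-08). Of 20 genes that pass on the receptor's signal 8 rose and 2 fell in keratocyte, 7 rose and 2 fell in fibroblast, and 5 rose and 2 fell in myofibroblast cultures. Grb10, an adaptor that restrains the receptor, averaged 296 ± 42.7 in myofibroblast, 355 ± 93.4 in fibroblast and 224 ± 12.3 in keratocyte cultures, against 66.8 ± 30.2 in adult stroma (all 3 called). Of 9 other IGF genes 2 rose and 2 fell in keratocyte cultures, 3 rose in fibroblast and 2 rose in myofibroblast cultures. Ins2 rose in each, to 754 ± 139 in myofibroblast, 565 ± 186 in fibroblast and 309.9 ± 85 in keratocyte cultures, against 76.6 ± 2.98 in adult stroma. The adult means of Mmp3, Grb10 and Ins2 lay within background as well. Of 8 growth hormone genes 1 rose in keratocyte, 2 rose and 1 fell in fibroblast, and 1 rose and 1 fell in myofibroblast cultures.

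**Figure D3:**
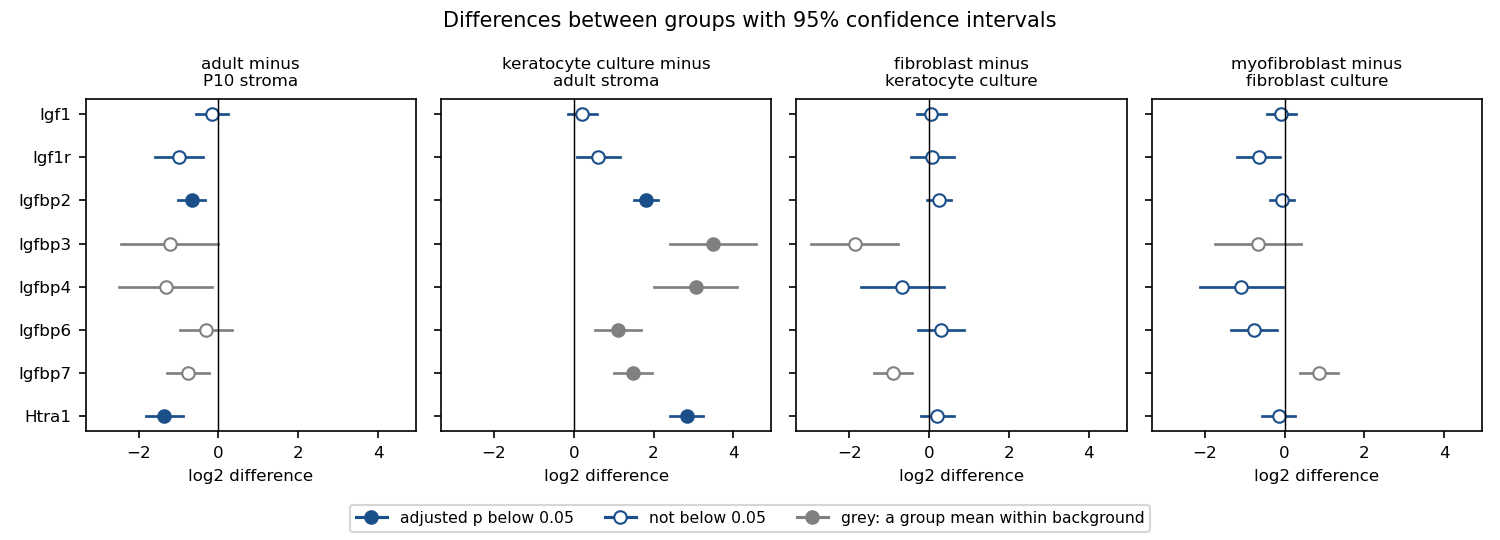
Difference of log2(signal + 16) for each of 8 members with its 95% interval in 4 comparisons, filled where the adjusted p is below 0.05 and grey where a group mean is within background, so that the text gives a bound or no fold. Filled points stand at the left for Igfbp2 and Htra1 in adult minus P10 stroma and at the right for 6 members in keratocyte culture minus adult stroma, with none in the other 2 panels.

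Comparisons among the cultures set stromal cells in serum with TGF-beta1, in serum alone and in little serum side by side, and the kind of serum differs between the last 2. Fibroblast minus keratocyte gave 0 of 8 members by limma (1.37% of all probe sets called). At an unadjusted p below 0.05 there were 2, Igfbp3 and Igfbp7, both lower, against 8.63% of all probe sets. Igfbp7, within background on every array, passed the filter only through keratocyte and myofibroblast cultures, so its place in this count gives no support. None of the other pathway lists had a called gene in fibroblast minus keratocyte. In that comparison 5 of 12 macrophage and 4 of 5 pigment cell markers were lower in fibroblast cultures. Myofibroblast minus fibroblast gave 0 of 8 (1.07% of all probe sets). At an unadjusted p below 0.05 there were 4, 3 lower and 1 higher, against 8.05% of all probe sets. The higher one was Igfbp7, which gives no support for the same reason. Myofibroblast minus keratocyte gave 2 of 8 lower, Igfbp3 and Igfbp4 (4.88% called lower, 5.98% either way), with a median of -0.26 over the members and -0.13 over all probe sets. Macrophage markers moved the same way, 7 of 12 lower in myofibroblast than in keratocyte cultures, with summed signals of 1343 to 2204 and 3628 to 4669 in those cultures. So did all 5 measured pigment cell markers, with sums of 464 to 581 in myofibroblast and 1947 to 2313 in keratocyte cultures. Of 9 endothelium markers 4 were lower in myofibroblast cultures, yet the summed endothelium signal overlapped, with 2534 to 3472 in myofibroblast and 2222 to 2958 in keratocyte cultures. Of 8 myofibroblast and smooth muscle markers 1 was lower and 0 higher. Their sums were 10357 to 11345.5 in myofibroblast and 11468 to 12711 in keratocyte cultures. Of 9 measured keratocyte markers 3 were lower and 0 higher, and their sums overlapped. In myofibroblast minus fibroblast, and in fibroblast minus keratocyte, 0 of the 8 were called and 1 of the 9 was lower. The part of these cells was not tested.

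Same-numbered myofibroblast and fibroblast arrays deviated together from their group means, so the TGF-beta1 comparison was also fitted with the replicate number as a block. It then gave 253 called probe sets in place of 111 (2.44% of those tested) and 2 of 8 members. Igfbp4 was lower in myofibroblast cultures by -1.08 ± 0.22 (adjusted p = 0.0181, against 0.584 without the block), with same-numbered differences of -0.51, -0.81 and -1.93. Its other probe sets gave adjusted p of 0.00627 and 0.0118 with the block. Igfbp7 was higher in the block fit (adjusted p = 0.0456, against 0.103), with signals within background, and had passed the filter through myofibroblast and keratocyte cultures only. Igfbp6 was lower in all 3 pairs without a call (-0.48, -0.94 and -0.90, adjusted p = 0.092 with the block). Igfbp3, within background in both groups, was not called with the block either (adjusted p = 0.128). Igf1r had an adjusted p of 0.223 with the block. On the dimmer Igf1 probe set every myofibroblast array lay above every fibroblast array without a call. The difference there was 0.93 (adjusted p = 0.136, and 0.1 with the block).

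**Figure D4:**
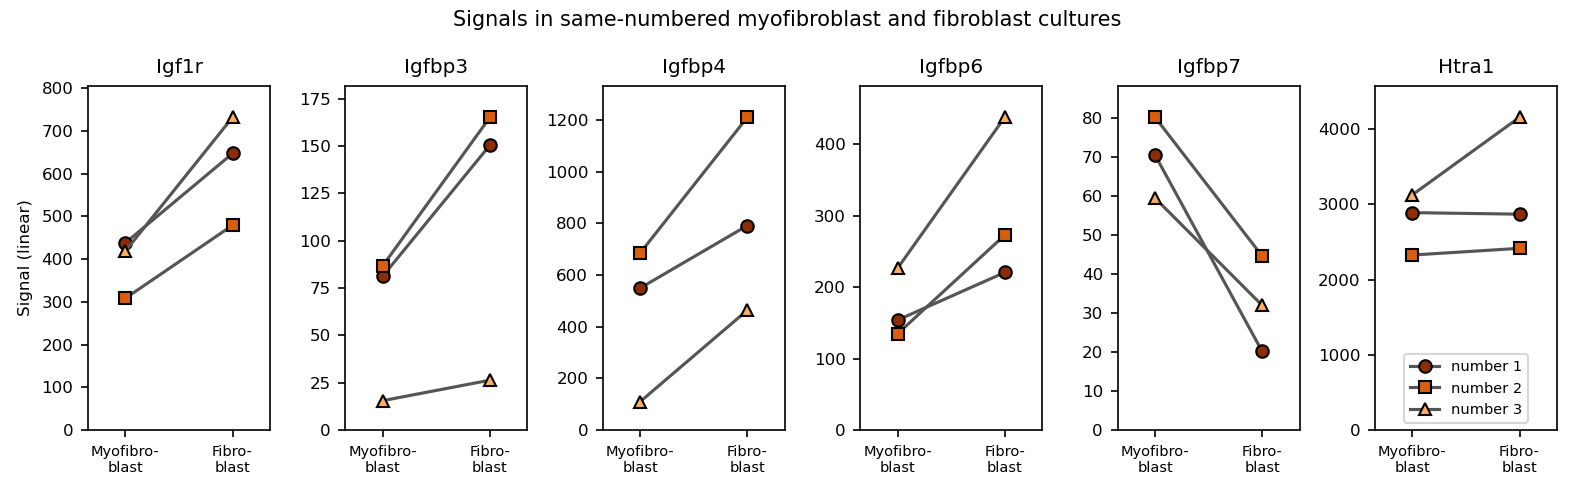
Signals (linear axes from 0) of 6 members in same-numbered myofibroblast (left) and fibroblast (right) cultures, joined by number. Igf1r, Igfbp3, Igfbp4 and Igfbp6 are lower and Igfbp7 higher in the myofibroblast culture of every pair, and Htra1 has no common direction.

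Among the other lists the TGF-beta1 comparison gave 3 called genes, against 1.07% of all probe sets called. They were 1 of 9 other IGF genes, 1 of 14 proteases and 1 of 8 other genes with an IGFBP domain. The 20 signalling and 8 growth hormone genes gave 0. Igf2 was lower in myofibroblast cultures at 152, 155 and 76, against 534, 461 and 568 in fibroblast cultures (adjusted p = 0.00713, and 0.109 without both number 3 arrays). Mmp3 was lower too, at 435, 173 and 80.2 in myofibroblast and 2044, 1409 and 827 in fibroblast cultures (-2.75 ± 0.46, adjusted p = 0.00751). Ccn4, a matricellular protein with an IGFBP domain, was higher, at 1583, 869 and 1385 in myofibroblast and 369.7, 223 and 273 in fibroblast cultures (2.07 ± 0.25, adjusted p = 0.000844). None of these arrays overlapped between the groups. With the replicate block, where 2.44% of all probe sets were called, C1ra, Plau and Socs2 were called lower as well (adjusted p of 0.0225, 0.0109 and 0.0224). Against keratocyte cultures, myofibroblast cultures had 5 of 14 proteases lower and 1, Mmp7, higher (4.88% of all probe sets called lower, 5.98% either way). Without both number 3 arrays 3 of the 5 remained, and Mmp7 was not called (adjusted p = 0.196). Mmp3 averaged 229 ± 184 in myofibroblast and 2611 ± 256 in keratocyte cultures there (adjusted p = 0.000202). In the same comparison 1 of 9 other IGF genes was higher and 1 lower, and 1 of 8 other IGFBP domain genes was higher. Of 20 signalling genes 1 was lower, and 0 of 8 growth hormone genes were called.

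Genes whose pattern was most like each member's were taken over the 14 arrays by Pearson's r of log2 signals among 4249 genes, as a description over arrays that share groups. For Htra1 they were Fmod (r = 0.991), Timp2 (0.987) and Col8a1 (0.987), and for Igfbp2 Lgals1 (0.986), Praf2 (0.983) and Bgn (0.982). Igfbp3 was followed by Emcn (0.947), Nr2f1 (0.946) and Serpina3n (0.94), and Igfbp4 by Serpina3n (0.94), Igfbp3 (0.918) and Nrp1 (0.899). Serpina3n averaged 271 in myofibroblast, 946 in fibroblast and 3368 in keratocyte cultures, with 43.4 in adult and 56.6 in P10 stroma. For Igf1r the nearest was Iars2 (0.938), for Igfbp6 Exoc4 (0.911), for Igfbp7 Ncam1 (0.871) and for Igf1 Ncs1 (0.869).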

How the data were processed

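RNA of 14 samples in 5 groups was measured on MG_U74Av2 arrays, 5 µg per array. Deposited were linear probe set signals (intensity). Per the labels, the authors scaled each array to 150 in Microarray Suite 5.0. Trimmed means (2%) ran from 163.4 to 224, and how the floor at 1 arose is not stated here. From 99 to 359 probe sets per array were at the floor. Precision is limited by the number of arrays.

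After removal of 66 control probe sets, 10370 of 12422 had a mean of 50 or more in at least 1 group and were kept. Of the 12422, 10833 had 1 gene symbol, 396 several and 1193 none in the platform annotation. A linear model of log2(signal + 16) was run in R 4.3.3 (limma 3.58.1), 1 mean per group over all 14 arrays (9 residual degrees of freedom), with an empirical Bayes variance trend. Tests were two-sided, with Benjamini-Hochberg adjustment over all kept probe sets. The fit was tested on simulated data. A bound sets the mean log2 signal of the bright group against the mean, over arrays of the dim group, of the higher of its signal and that array's 95th percentile of absent controls.

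Each of the 8 members with a probe set of 1 symbol was followed by the one with the highest mean log2 signal over the arrays, and Igfbp5 by its shared probe set. Of the other lists, up to 3 called genes per list and comparison with the largest difference could be named, and 3 genes of like pattern per member (highest group mean of 200 or more). Plg, Mmp7 in myofibroblast minus keratocyte, C1ra, Plau, Socs2 and Serpina3n's levels were chosen after their values were seen. Members and lists were chosen with earlier results of these data known. Promoters came from RefSeq, GRCm38.p6; list genes without a probe set were not analysed here.

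Deviations of same-numbered myofibroblast and fibroblast arrays from their group means correlated at 0.623, 0.682 and 0.533, against -0.442 to -0.084 for other numbers. No other pair of groups with 3 numbers passed 0.1 for every number, and the labels do not say what a number means. In all, 26 alternatives changed the added constant, filter, normalization, samples fitted, block, variance trend, covariate, probe set summary or left out 1 array. Leaving out both number 3 arrays of the serum cultures was added after seeing the data.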

Additional observations from a re-analysis of the deposited data

How the results depend on the processing

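Of 1505 alternative values of the members' differences, 1424 stayed on their side of the threshold, 45 passed it newly, 36 lost it and none reversed a called direction. 34 uncalled values changed sign. Counts of called members in keratocyte or fibroblast culture minus adult stroma stayed within 1.5 times the reported ones. Adult minus P10 stroma (2 reported) gave 1 with no filter, median centring, the replicate block, no variance trend or the Gapdh covariate, 4 without both number 3 arrays of the serum cultures, and 1 to 3 leaving out 1 array. Fibroblast minus keratocyte culture (0) gave 2 with an added constant of 64, 1 with the replicate block, no variance trend or without both number 3 arrays, and 0 to 1 leaving out 1 array. Myofibroblast minus fibroblast culture (0) gave 2 with the replicate block and 0 to 1 leaving out 1 array. Myofibroblast minus keratocyte culture (2) gave 1 with an added constant of 1, no filter, quantile normalization, median centring, rescaling, only the 2 groups, no variance trend or the Gapdh covariate, and 1 to 2 leaving out 1 array. Myofibroblast culture minus adult stroma (3) gave 5 with the replicate block, the median over probe sets or without both number 3 arrays, and 3 to 5 leaving out 1 array. The cause was not tested. The block also took Igfbp7 past the threshold in fibroblast minus keratocyte (adjusted p = 0.0485), and Igfbp4 (0.032) and Igfbp6 (0.0479) in myofibroblast minus adult. It took Igfbp2 out in adult minus P10 (0.0844) and changed no other member's call.

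Over all probe sets, adult minus P10 calls (385) were 225 with only the 2 groups, 198 with the Gapdh covariate, 220 without adult replicate 1, and 117 and 134 without P10 replicate 1 or 2. Fibroblast and myofibroblast minus adult (3189 and 3420) were 2023 and 2038 with that covariate. Fibroblast minus keratocyte (142) was 83 with a constant of 1, 46 with 2 groups, 59 without fibroblast replicate 3, 36 and 20 without keratocyte replicate 1 or 3, and 72 without both number 3 arrays. Myofibroblast minus fibroblast (111) was 16 with 2 groups, 253 with the block, 61 without myofibroblast replicate 3, 70 without keratocyte replicate 3 and 57 without both number 3 arrays. Myofibroblast minus keratocyte (620) was 411 without myofibroblast replicate 3, and 298 and 304 without keratocyte replicate 1 or 3. Quantile normalization made higher and lower calls 107 and 316 in adult minus P10 (47 and 338 reported), 1893 and 1647 in keratocyte minus adult (2262 and 959), 39 and 111 in fibroblast minus keratocyte (20 and 122), 63 and 95 in myofibroblast minus fibroblast (30 and 81) and 273 and 414 in myofibroblast minus keratocyte (114 and 506). Median centring moved the median over all probe sets from -0.12 to 0.05 in adult minus P10, from 0.12 to -0.05 in keratocyte minus adult and from -0.13 to 0.04 in myofibroblast minus keratocyte. Group means below 137.7 limit Igfbp3, Igfbp4 (adult stroma), Igfbp6, Igfbp7 and the dimmer Igf1 probe set.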
